A study of Mus musculus with 6 samples.

Results

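The genes described here mark T cells and intraepithelial lymphocytes in the lining of the mouse ileum, and were taken as all probe sets whose platform symbol is exactly Cd3d, Cd3e, Cd3g, Cd8a, Cd7, Cd2, Itgae, Gzma, Gzmb or Cd160. All 10 genes were on the array, with 18 of its 45037 non-control probe sets, and they are 10 of the 18193 genes with a probe set of their own. RNA came from the terminal ileum of 3-month-old female mice of the 129S6 background. There were 3 Duoxa-/- pools and 3 wild-type pools, with the RNA of 2 to 3 animals combined in a pool, and every cage, which held 1 litter, contributed a pool of both genotypes. The comparison asked how Duoxa-/- mice, which lack the maturation factors of the dual oxidases DUOX1 and DUOX2, differ in ileal expression from wild-type littermates housed with them. Since animals were pooled before labelling, the spread between single mice cannot be seen, and 1 array per pool limits the precision of every value.

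Intraepithelial lymphocytes are T cells that sit between the epithelial cells of the gut, and in the mouse small intestine many carry CD8 as a pair of alpha chains. The CD3 chains carry the signal of the T cell receptor into the cell. The integrin alpha E chain (CD103, Itgae) binds E-cadherin on the epithelium and holds the cells there, and granzymes are serine proteases that these cells store in granules and release into target cells. CD2, CD7 and CD160 are surface receptors that tune activation.

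Averaged over the 3 cages, 0 of these genes passed the test between genotypes, and the differences within single cages had opposite signs. In cage 1 the Duoxa-/- pool was higher than the wild-type pool for 8 of 10 genes, with a median difference of 0.56 on the log2 scale (1.47-fold). In cage 2 the Duoxa-/- pool was lower for 9 of 10, with a median of -0.73 (1.66-fold lower), and in cage 3 it was lower for 9 of 10, with a median of -0.36 (1.29-fold lower). The medians over all 18193 genes were 0.003, -0.03 and 4.2e-05 in cages 1, 2 and 3. Granzyme B spanned the widest range, 3.89-fold between its highest and lowest pool. All values are the authors' RMA summaries on the log2 scale, differences are Duoxa-/- minus wild type, and a gene with several probe sets is represented by the one with the highest mean. In bulk mucosa, fewer lymphocytes and less RNA per lymphocyte cannot be told apart.

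Array medians lay between 6.55 and 6.60, and any pair of arrays had r of 0.994 to 0.998 across probe sets. Duoxa2, one of the maturation factors, read 5.79 ± 0.21 in Duoxa-/- pools and 8.14 ± 0.81 in wild-type pools (SD, n = 3 each), and the Duoxa-/- pool was the lower one in each cage. The labels do not say whether its probe set lies in the deleted part. The Duoxa2 difference of -2.34 (SE 0.33) had a limma adjusted p of 0.794, so the test did not call it. Duoxa1, the other maturation factor, differed by -0.15 (SE 0.12, limma adjusted p = 0.822), and was higher in the Duoxa-/- pool of cage 3. With 3 pools a group, 0 calls therefore cannot show that genes were unchanged. The label of the tissue was borne out by the ileal enterocyte markers, 12 of 12 measured above 6.58, the median of all probe sets, among them the ileal bile acid binding protein Fabp6 with a mean of 14.7. All 10 genes described here also had a mean above that median, as did all 12 measured genes of a list of T cell markers, 6 of which are among the 10. Each gene is read at its brightest probe set, which raises its level, and the median over all genes read that way was 7.78. Cd3e (7.65), Cd160 (7.57) and Cd2 (7.24) lay below it, as did the T cell markers Cd8b1, Cd4, Cd5 and Cd247. Summed after undoing the log2 scale, the T cell markers read 3169 to 3857 in Duoxa-/- pools and 3165 to 4611 in wild-type pools.

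Among the CD3 chains of the T cell receptor complex, the gamma and delta chains had differences of opposite sign in cage 1 and in cages 2 and 3, and the epsilon chain had the same sign in all. Cd3g (1419178_at) read 9.08, 8.58 and 8.61 in the Duoxa-/- pools of cages 1, 2 and 3, against 8.35, 9.31 and 8.97 in the wild-type pools of the same cages. Cd3d (1422828_at) read 9.38, 9.17 and 9.20 in Duoxa-/- pools, against 8.77, 9.60 and 9.46 in wild-type pools. For both genes the wild-type pools held the highest and the lowest value, those of cage 2 and cage 1, and the Duoxa-/- pools lay between them. Cd3e (1422105_at) read 7.75, 7.56 and 7.50 in Duoxa-/- pools, against 7.81, 7.71 and 7.59 in wild-type pools. Its values overlapped between genotypes, and within each cage the Duoxa-/- pool was the lower one, by 0.06, 0.16 and 0.09. The genotype difference was -0.12 for Cd3g (SE 0.23, limma adjusted p = 0.925), -0.03 for Cd3d (SE 0.19, adjusted p = 0.981) and -0.10 for Cd3e (SE 0.10, adjusted p = 0.848), none of them larger than the spread between pools.

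The 3 CD3 genes are neighbours on mouse chromosome 9, and the 250 bases before their starts are shown because Cd3g and Cd3d followed each other over the 6 pools (r = 0.94) and Cd3e followed neither (r = 0.13 with Cd3g and -0.22 with Cd3d). Cd3g followed Itgae (r = 0.99), Gzma (r = 0.97) and Gzmb (r = 0.96) more closely than Cd3d, so this likeness was not particular to neighbouring genes. Cd3e ranged over only 0.31 across the 6 pools, against a median range of 0.33 over all genes. The windows of Cd3g and Cd3d lie 854 bases apart on opposite strands, and that of Cd3e lies 27826 bases beyond the Cd3d window. The sequences are from RefSeq (GRCm38.p6), each written 5′ to 3′ along its gene, and capitals mark matches on either strand to 4 short motifs. These were TGTGGT for RUNX factors, GGTGTG for T-box factors, TTCNNNGAA for STAT factors and CAGGTG for E proteins, all of them families that act in T cells.
Cd3g (chr9:44980432-44980681, - strand): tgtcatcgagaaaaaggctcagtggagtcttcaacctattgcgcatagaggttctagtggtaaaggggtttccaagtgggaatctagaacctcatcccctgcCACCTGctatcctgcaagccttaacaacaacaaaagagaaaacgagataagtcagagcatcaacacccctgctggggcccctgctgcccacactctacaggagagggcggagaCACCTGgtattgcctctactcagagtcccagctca
Cd3d (chr9:44981536-44981785, + strand): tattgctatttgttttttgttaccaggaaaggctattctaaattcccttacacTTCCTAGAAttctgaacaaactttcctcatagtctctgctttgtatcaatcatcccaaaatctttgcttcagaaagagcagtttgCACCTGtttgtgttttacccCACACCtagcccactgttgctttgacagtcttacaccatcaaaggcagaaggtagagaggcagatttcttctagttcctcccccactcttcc
Cd3e (chr9:45009612-45009861, - strand): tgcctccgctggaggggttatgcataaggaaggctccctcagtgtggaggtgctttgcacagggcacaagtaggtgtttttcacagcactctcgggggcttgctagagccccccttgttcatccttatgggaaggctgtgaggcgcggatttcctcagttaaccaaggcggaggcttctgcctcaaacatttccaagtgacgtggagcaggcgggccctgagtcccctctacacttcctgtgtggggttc
The Cd3g window held the E protein motif at 2 places, starting 148 and 35 bases before the start. The Cd3d window held the E protein motif, the STAT motif and the T-box motif once each, with no overlap, starting 112, 197 and 92 bases before the start. The Cd3e window held none of these letters. Over all 32851 promoter windows of 250 bases, 14.0% held the RUNX motif, 16.3% the T-box motif, 7.02% the STAT motif and 17.2% the E protein motif, so single matches are common and a match is not a binding site.

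Cd8a, the alpha chain of the CD8 coreceptor that binds MHC class I, was measured by 5 probe sets. The brightest (1444078_at) read 8.47, 7.65 and 8.06 in the Duoxa-/- pools of cages 1, 2 and 3, against 7.97, 8.86 and 8.50 in the wild-type pools. The values overlapped, with the 2 pools of cage 2 at the bottom and the top of the range, 2.32-fold apart. The difference over all cages was -0.38 (95% interval -0.95 to 0.19, limma adjusted p = 0.798). A second probe set, 1425335_at, ran in parallel over the pools (r = 0.984) with a difference of -0.32. The others gave -0.20 (1440811_x_at), -0.19 (1440164_x_at) and -0.0002 (1451673_at). The last followed the brightest less closely (r = 0.511), and 1440164_x_at and 1440811_x_at lay below 6.58 and can bind related transcripts, as their names mark. Probe set 1440164_x_at was the only one of the 18 whose groups did not overlap, with the Duoxa-/- pools lower (6.15 to 6.30, against 6.33 to 6.60 in wild-type pools), where 5.36% of all probe sets do so in that direction.

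Of the surface receptors that tune activation, Cd7 was lower in the Duoxa-/- pool of each cage and Cd2 was higher in each. Cd7 (1419711_at), an immunoglobulin-family receptor of T and NK cells, read 8.40, 7.89 and 8.03 in Duoxa-/- pools, against 8.52, 9.29 and 8.40 in wild-type pools. Its differences were -0.12, -1.41 and -0.37 in cages 1, 2 and 3, so that cage 2 alone carried most of the mean of -0.63 (95% interval -1.15 to -0.11). Its groups still overlapped, since the Duoxa-/- pool of cage 1 lay above the wild-type pool of cage 3. Cd7 had the smallest p of the 10 genes, 0.0234 before adjustment in limma, and an adjusted p of 0.794. Cd2 (1418770_at), which binds CD48 in the mouse, read 7.37, 7.36 and 7.28 in Duoxa-/- pools, against 6.86, 7.30 and 7.27 in wild-type pools. The wild-type pool of cage 1 was the lowest, and the 5 other values lay between 7.27 and 7.37. The difference of 0.19 (SE 0.12, limma adjusted p = 0.796) thus came mainly from cage 1, where it was 0.51, against 0.06 and 0.01 in cages 2 and 3.

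Cd160, a receptor of cytotoxic lymphocytes that binds the TNF receptor family member HVEM, read 7.74, 7.25 and 7.35 in Duoxa-/- pools, against 7.51, 7.86 and 7.70 in wild-type pools at its brightest probe set (1420396_at). The wild-type pool of cage 2 was again the highest and the Duoxa-/- pool of cage 2 the lowest. The difference was -0.25 (SE 0.14, limma adjusted p = 0.795), and 1420066_s_at gave -0.19 with the same order of signs by cage. Probe set 1456847_at (-0.18) had the same order at a level of 4.88, and 1420067_at (-0.01), at 5.91, ranged over 0.11 in all. Both lie below the median of all probe sets, where RMA compresses differences. The dimmer one, 1456847_at, still ranged over 0.60, against 0.61 for the brightest.

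Itgae, the chain of the integrin that ties the cells to the epithelium, read 10.32, 9.84 and 9.75 in Duoxa-/- pools, against 9.61, 10.57 and 10.16 in wild-type pools (1447541_s_at). The wild-type pools of cages 2 and 1 were the highest and the lowest, 1.94-fold apart. The differences by cage were 0.70, -0.73 and -0.41, with a mean of -0.15 (SE 0.23, limma adjusted p = 0.909). The second probe set, 1449216_at, ran in parallel (r = 0.979) and gave 0.53, -0.85 and -0.51.

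**Figure D1:**
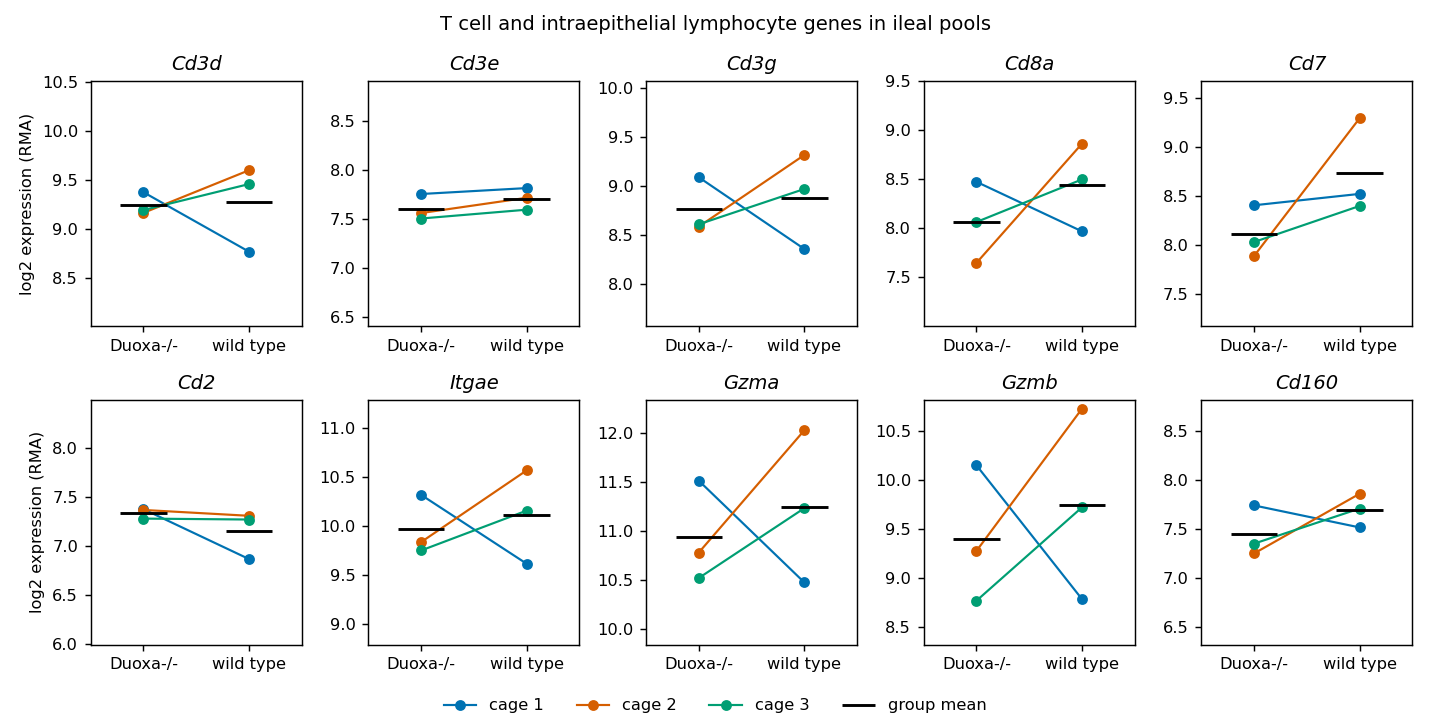
Log2 expression (RMA) of the 10 genes in each pool, Duoxa-/- on the left and wild type on the right of each panel, with a line joining the 2 pools of a cage and a black bar at each group mean (n = 3). All panels have axes of the same length. The line of cage 1 runs down towards wild type and those of cages 2 and 3 run up for 7 genes, while Cd3e and Cd7 run up and Cd2 runs down or level in all 3 cages.

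The granzymes had the widest ranges over the 6 pools. Gzmb (1419060_at), a protease that cuts after aspartate and starts apoptosis in target cells, read 10.15, 9.28 and 8.77 in the Duoxa-/- pools of cages 1, 2 and 3, against 8.78, 10.73 and 9.72 in the wild-type pools. Thus the Duoxa-/- pool was 2.58-fold higher in cage 1, and 2.73-fold and 1.94-fold lower in cages 2 and 3. Gzma (1417898_a_at), a protease that cuts after basic residues, read 11.51, 10.78 and 10.52 in Duoxa-/- pools, against 10.48, 12.03 and 11.23 in wild-type pools. It was 2.05-fold higher in the Duoxa-/- pool of cage 1, and 2.38-fold and 1.64-fold lower in those of cages 2 and 3. For both proteases the groups overlapped, with the wild-type pool of cage 2 the highest, and the wild-type pools alone differed by 3.85-fold for Gzmb and 2.94-fold for Gzma. The genotype differences, -0.35 for Gzmb (95% interval -1.43 to 0.74, limma adjusted p = 0.891) and -0.31 for Gzma (95% interval -1.16 to 0.54, adjusted p = 0.875), were smaller than this spread.

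The granzyme genes lie on different chromosomes, and their levels followed each other over the 6 pools with r = 0.997, the closest of the 45 pairs of these genes. The 250 bases before their starts are shown for that reason, with the same motifs in capitals.
Gzmb (chr14:56262335-56262584, - strand): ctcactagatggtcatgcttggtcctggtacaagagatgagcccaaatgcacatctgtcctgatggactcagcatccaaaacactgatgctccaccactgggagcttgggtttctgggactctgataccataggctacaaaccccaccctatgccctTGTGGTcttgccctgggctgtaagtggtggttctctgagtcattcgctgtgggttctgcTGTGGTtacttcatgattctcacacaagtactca
Gzma (chr13:113100982-113101231, - strand): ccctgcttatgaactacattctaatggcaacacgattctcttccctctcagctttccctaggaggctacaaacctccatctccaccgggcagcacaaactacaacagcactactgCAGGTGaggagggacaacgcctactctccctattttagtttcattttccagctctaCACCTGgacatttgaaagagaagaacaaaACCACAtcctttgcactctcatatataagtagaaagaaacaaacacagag
The Gzmb window held the RUNX motif at 2 places, starting 93 and 34 bases before the start. The Gzma window held it once, on the other strand 50 bases before the start, and the E protein motif at 2 places, 135 and 79 bases before it. Neither window held the T-box or STAT letters, and that of Gzmb lacked those of the E protein motif. Of the 7 genes with a window in the table, Cd160 also held the RUNX motif, once in each of its 2 windows, and Cd8a held none of the 4.

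Counted over the 10 genes, the test across all probe sets called 0 higher and 0 lower in Duoxa-/- pools (limma, Benjamini-Hochberg adjusted p under 0.05), and 1 gene, Cd7, had an unadjusted p under 0.05. Of all probe sets, 0% were called higher and 0% lower, and 3.35% and 2.63% had an unadjusted p under 0.05 as higher and as lower. The mean difference was below 0 for 9 of 10 genes, against 53.9% of all genes, with a median of -0.20 against -0.01. Only 2 of 10 (Cd3e and Cd7) were lower in Duoxa-/- pools in every cage, where 16.6% of all genes were, and 1 (Cd2) was higher in all 3, where 13.5% were. Higher in cage 1 and lower in cages 2 and 3 were 7 of 10, against 13.7% of all genes. In cage 1, 5 of 10 were higher by at least 1.5-fold, against 1.64% of all genes, and in cage 2, 7 of 10 were lower by at least 1.5-fold, against 1.01%. The Duoxa-/- pools all lay below the wild-type pools for 0 of the 10, against 6.46% of all genes. They all lay above them for 0 of the 10, a direction for which the share over all genes was not taken. The order of signs by cage is that of 1 pool pair per cage. A genotype effect that depends on the cage and a difference between the pools themselves therefore cannot be told apart.

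Single pools decided the mean difference. Without the wild-type pool of cage 2 the median over the 10 genes was 0.08, and without both pools of that cage 0.16. Without both pools of cage 1 it was -0.56, with 9 of 10 genes lower. There 8 of 10 genes had an unadjusted p under 0.05 in limma, against 3.87% of all probe sets, and 0 an adjusted p under 0.05 (smallest 0.999), as 0% of all probe sets did. Without both pools of cage 2, 0 of 10 genes had an unadjusted p under 0.05 in limma, against 1711 of 45037 probe sets. Without both pools of cage 3 it was 1 of 10, against 3335 of 45037. Each of these fits rests on 2 pools a group, and the genes varied together, so their counts are not counts of separate observations.

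**Figure D2:**
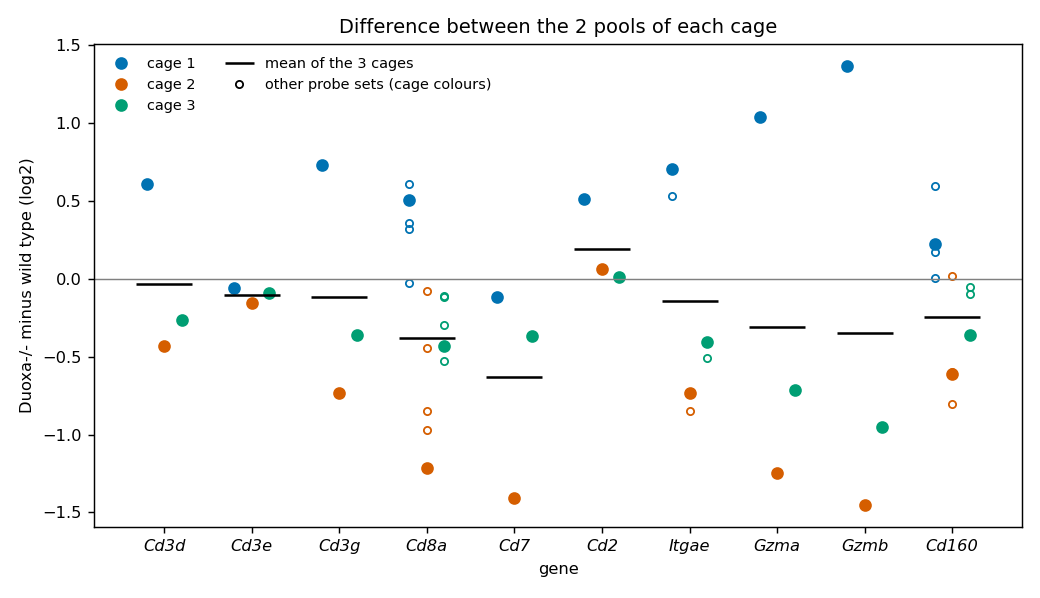
Difference between the Duoxa-/- and the wild-type pool of each cage (log2, vertical axis) for each gene, as filled points for the brightest probe set, open points for the other probe sets of Cd8a, Itgae and Cd160, and a black bar at the mean of the 3 cages. Cage 1 lies above 0 for 8 genes and cage 2 below 0 for 9, from 1.37 to -1.45 for Gzmb.

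The cages were also compared with each other. With genotype in the fit, limma's F-test between cages called 0 of the 18 probe sets (smallest adjusted p = 0.886), and 0 had an unadjusted p under 0.05, against 5.55% of all probe sets. Over all probe sets 1 was called, 0.00222% of them, an unnamed one that is no probe set of these genes. The F-test compares cage means, so opposite deviations of the 2 pools of a cage cancel in it and add to its spread. Over the 10 genes, the deviations of same-cage pools from their group means had r = -0.78, -0.25 and 0.08 in cages 1, 2 and 3. The 0 calls therefore cannot show that the cages were alike. The pools of a genotype nevertheless lay far apart. The SD within genotype had a median of 0.39 over the 10 genes, against 0.12 over all genes. For 7 genes, Cd3d, Cd3g, Cd8a, Cd7, Itgae, Gzma and Gzmb, the range over the 6 pools was in the widest 5% of all genes, and for 4 of them, Cd8a, Cd7, Gzma and Gzmb, it reached 2-fold, as it did for 1.84% of all genes. The wild-type pools spread more than the Duoxa-/- pools for 8 of 10 genes, with a median range of 0.51 over the Duoxa-/- pools and 0.90 over the wild-type pools. Over all genes these ranges were 0.18 and 0.23, and 61.7% of genes spread more in wild-type pools. The wild-type pool of cage 2 was the highest of the 6 for 8 of 10 genes, where 22.7% of all genes had their highest value, and the wild-type pool of cage 1 the lowest for 5, where 26.8% had their lowest.

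**Figure D3:**
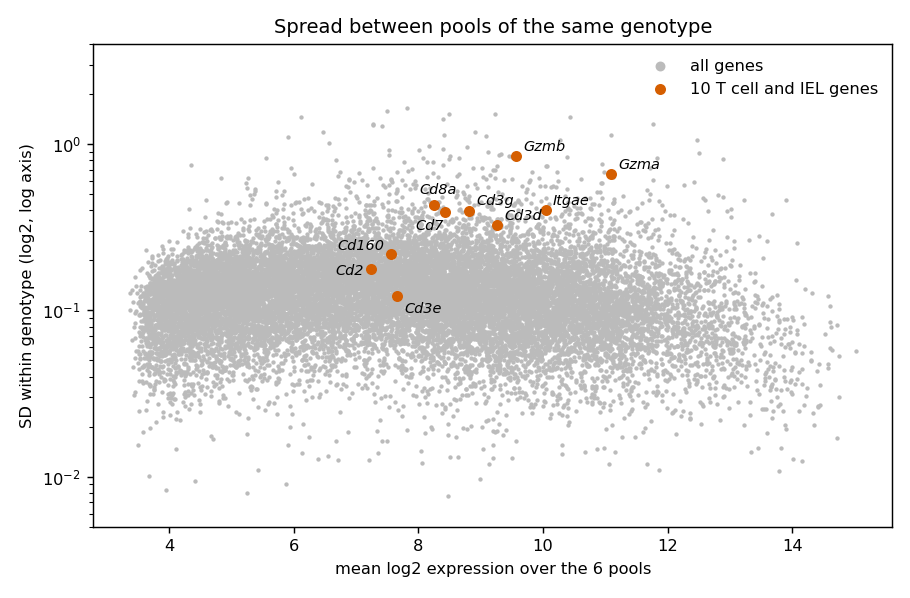
SD between pools of the same genotype (log2, on a log axis) against the mean log2 expression over the 6 pools, for all 18193 genes in grey and the 10 T cell and intraepithelial lymphocyte (IEL) genes in orange. Gzmb (0.85) and Gzma (0.66) lie near the top of the cloud, and Cd3e (0.12) in its middle.

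Most of these genes varied together over the pools. The 45 pairs had a median Pearson r of 0.77 over the 6 pools, and 9 pairs were above 0.9, as given here without a test, since all values come from the same 6 arrays. Itgae, Gzma, Gzmb and Cd3g followed the mean of the 9 other genes most closely (r = 0.99, 0.99, 0.97 and 0.97), and Cd3e and Cd2 least (r = 0.27 and 0.40). The pair of Cd3e and Cd2 had the lowest r, -0.53. Cd7 was nearer to Cd160 (r = 0.85) and Cd8a (r = 0.83) than to Cd3d (r = 0.44).

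**Figure D4:**
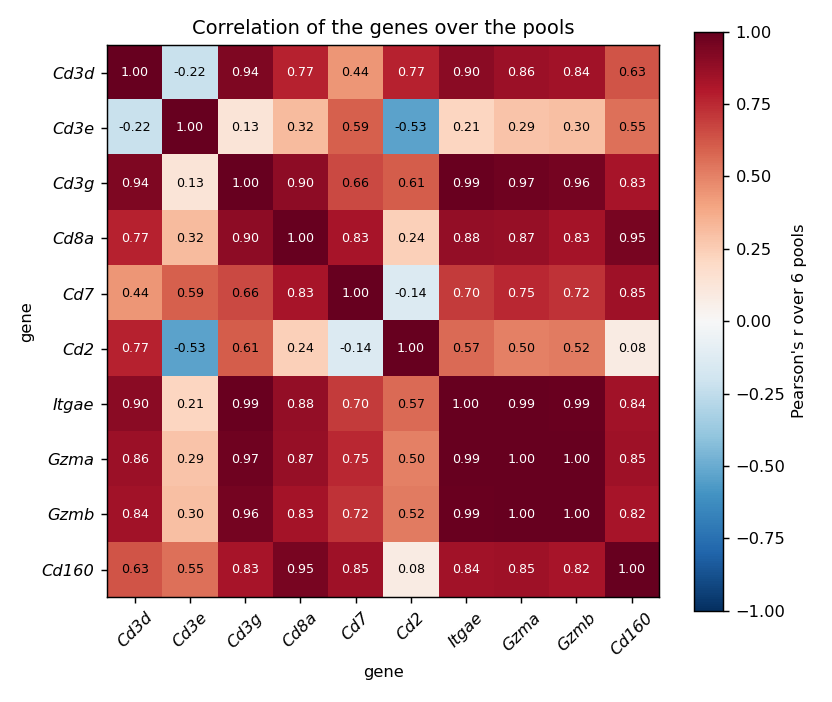
Pearson's r between each pair of the 10 genes over the 6 pools, written in each cell and coloured from -1 (blue) to 1 (red). Gzma, Gzmb, Itgae and Cd3g form a block with r of 0.96 to 0.997. The rows of Cd3e and Cd2 are paler, with highest r of 0.59 (Cd3e with Cd7) and 0.77 (Cd2 with Cd3d).

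Among 11598 other genes with a mean of at least 6.58, the 10 whose values over the 6 pools were most like the mean of these genes were Wwp2 (r = 0.994), Cst7 (0.993), Trp53inp1 (0.989), Cds1 (0.988), Fcho1 (0.985), B2m (0.984), Il17rc (0.983), Cd5 (0.983), Ifi35 (0.982) and Ccl5 (0.980). These r were picked as the highest of 11598 over only 6 pools, and they were not tested. Of the 10, only Cd5 and Ccl5 are in the gene lists used here. Cst7 encodes cystatin F, an inhibitor of granule cathepsins in cytotoxic cells. Cd5 is a surface receptor of T cells that dampens their signalling, and Ccl5 a chemokine made by cytotoxic T cells. B2m encodes the light chain of MHC class I. Their ranges differed widely, with Ccl5 spanning 1.37, Cst7 0.77, Cd5 0.74 and B2m 0.12. Ccl5 read 12.24, 11.49 and 11.71 in Duoxa-/- pools, against 11.45, 12.82 and 12.25 in wild-type pools.

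The 5 pathway lists of T cell, intraepithelial lymphocyte, cytotoxic and epithelial genes had medians of the same sign in each cage as the 10 genes. These medians were smaller, and some were near 0. For T cell subsets the median in cage 2 was -0.003, against -0.03 over all genes, and 9 of 19 genes were higher. In cage 3, 8 of 17 epithelial ligands and survival or homing factors were higher. Averaged over the cages, only the list of T cell receptor chains and signalling had a median below 0, -0.08 against -0.20 for the 10 genes. The median difference was 0.02 for intraepithelial and tissue-resident lymphocytes and 0.001 for cytotoxic genes. It was 0.04 for T cell subsets and 0.02 for epithelial ligands and survival or homing factors. Of 17 measured genes of T cell receptor chains and signalling, 0 were called in either direction, the median difference was -0.08, and the medians were 0.27, -0.34 and -0.15 in cages 1, 2 and 3. Its 3 members with the highest mean were the kinase Zap70 (difference -0.08, SE 0.11), the adaptor Lat (-0.06, SE 0.16) and the adaptor Lcp2 (0.12, SE 0.19). Lat and Lcp2 were higher in the Duoxa-/- pool of cage 1 and lower in those of cages 2 and 3, and Zap70 the other way, with -0.38, 0.08 and 0.08. Of 21 measured genes of intraepithelial and tissue-resident lymphocytes, 0 were called, and 18 were higher in the Duoxa-/- pool of cage 1 and 17 lower in that of cage 2. Ccl5 differed by -0.36 (SE 0.32), the signalling adaptor Tyrobp by 0.02 (SE 0.13) and the aryl hydrocarbon receptor Ahr, which intraepithelial lymphocytes need for their upkeep, by 0.15 (SE 0.10).

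Of 20 cytotoxic granule and killing genes, 0 were called, with medians of 0.12, -0.06 and -0.10 in cages 1, 2 and 3. The granzyme-activating protease Ctsc differed by 0.08 (SE 0.10), the lysosomal protein Lamp1 by -0.01 (SE 0.08) and the granule proteoglycan Srgn by 0.10 (SE 0.15). These 3 are made by many cell types, and 9 of the 20 genes lay below 6.58. Of 19 genes of T cell subsets and lymphoid T cells, 0 were called, and their median was 0.23, -0.003 and -0.03 in cages 1, 2 and 3. Bcl11b (0.13, SE 0.08), Il7r (-0.08, SE 0.15) and Icos (0.45, SE 0.25) had the highest means in that list, and encode a T cell transcription factor, the interleukin-7 receptor and a costimulatory receptor. Of 17 epithelial ligands and survival or homing factors, 0 were called, and those with the highest means, the adhesion molecules Epcam (0.02, SE 0.07) and Cdh1 (-0.01, SE 0.09), which is the E-cadherin bound by CD103, and the chemokine Ccl25 (-0.02, SE 0.08), which draws lymphocytes to the small intestine, differed by less than their errors.

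Markers of other cells also differed between the pools. All 13 smooth muscle genes were lower in the Duoxa-/- pool of cage 1 and 12 of 13 higher in that of cage 2. In these 2 cages they were opposite in sign to the lymphocyte genes. In cage 3, 9 of 13 were lower, the same sign as 9 of the 10 lymphocyte genes. Their summed level (after undoing the log2 scale) was 52415 to 64018 in Duoxa-/- pools and 55566 to 77694 in wild-type pools. All 7 plasma cell genes were higher in the Duoxa-/- pool of cage 1 and lower in that of cage 2. In cage 3, 3 were higher and 4 lower. Their sums were 32098 to 35787 in Duoxa-/- pools and 30231 to 34285 in wild-type pools. Of 9 B cell genes, 7 were higher in cage 1, 5 in cage 2 and 1 in cage 3. Their sums were 4093 to 4917 in Duoxa-/- pools and 3171 to 4329 in wild-type pools. The 9 measured genes of follicles and Peyer's patches had sums of 4440 to 4937 in Duoxa-/- pools and 3177 to 4478 in wild-type pools, the lowest being the wild-type pool of cage 1. Enterocyte sums lay between 158115 and 176097 in Duoxa-/- pools and between 166764 and 174672 in wild-type pools. All 5 measured NK and innate lymphoid cell genes, Ncr1 among them, lay below 6.58. Mast cell sums were 956 to 1328 in Duoxa-/- pools and 988 to 1945 in wild-type pools, and macrophage and dendritic cell sums 12535 to 14859 in Duoxa-/- pools and 12810 to 14880 in wild-type pools. The part of these cells in the differences of the lymphocyte genes was not tested.

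**Figure D5:**
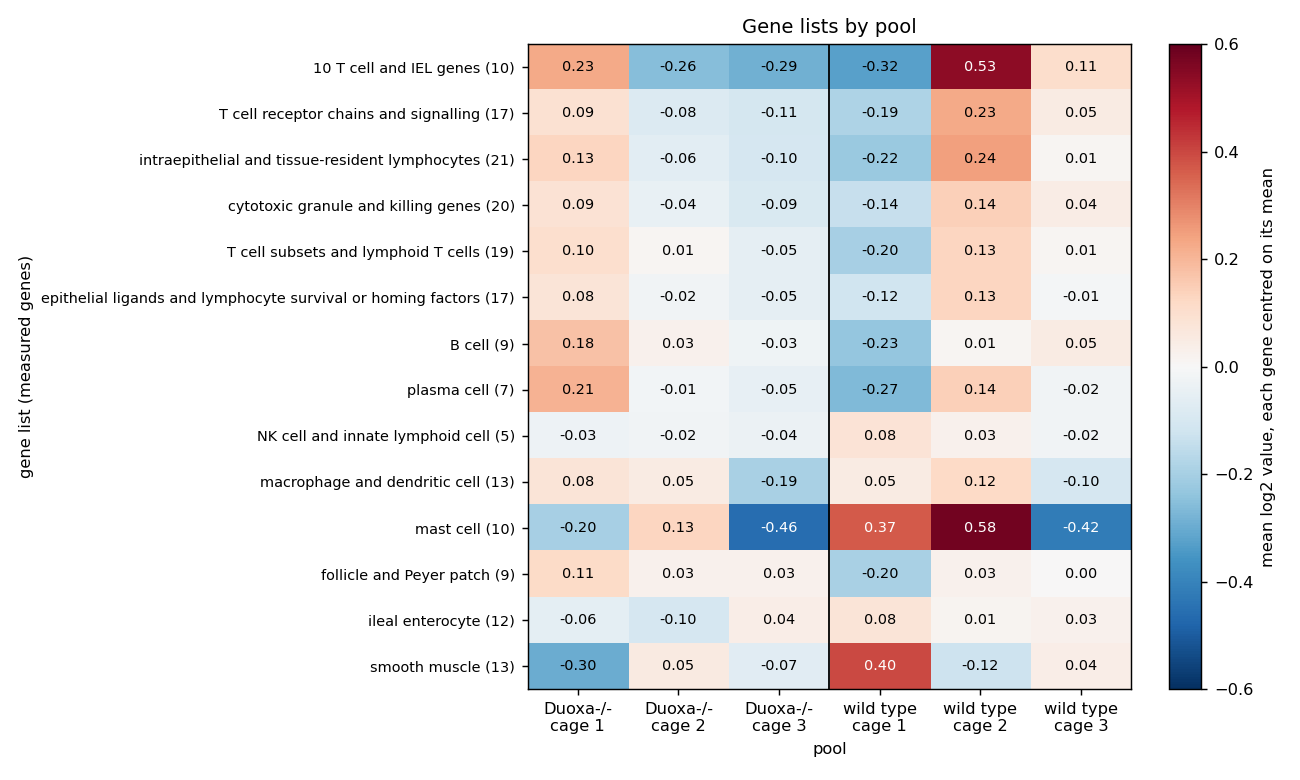
Mean log2 value of each gene list in each pool, every gene centred on its own mean over the 6 pools, with Duoxa-/- pools on the left and wild-type pools on the right of the black line, and the number of measured genes beside each list. The top row, the T cell and IEL genes, runs from 0.53 in the wild-type pool of cage 2 to -0.32 in that of cage 1, where the smooth muscle row reads -0.12 and 0.40.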

How the data were processed

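Ileal mucosal RNA, pooled per cage and genotype, was hybridised to 6 single-colour arrays. The authors summarised probe sets on the log2 scale with RMA (affy), per the submitters' processing notes. Versions and settings were not stated. RMA equalises array distributions and compresses differences of dim probe sets. After 64 control probe sets were removed, 45037 remained. Platform symbols were matched by gene ID to RefSeq (GRCm38.p6) for 34741 of them, and 0 symbols changed.

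Genotypes were compared without a cage term over all probe sets with limma 3.58.1 (two-sided, R 4.3.3), and cages with its F-test, keeping genotype in the fit. Adjusted p values (Benjamini-Hochberg), SE and 95% intervals are those of limma, and every SD of a group is over its 3 pools. P values measure the spread between pools, not between animals. The scripts were tested on simulated data. Python 3.11.15, pandas 2.3.3 and matplotlib 3.10.9 were also used.

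Pools are paired because littermates shared a cage, as the design text states. Over all probe sets, the deviations of same-cage pools from their group means had r = -0.15, 0.07 and 0.29 in cages 1, 2 and 3. Pools of different cages had r from -0.38 to 0.38, a range that held the same-cage values. The wild-type pool of the same cage had the highest r for the Duoxa-/- pools of cages 2 and 3, but not for that of cage 1. A replicate block for the cage was tried as an alternative.

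The genes, lists and alternatives were chosen with earlier results of these data known. The text names the 10 genes, the 3 genes of each pathway list with the highest mean and the 10 genes most correlated with the mean of the 10. Other genes were named after their values were seen.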

Additional observations from a re-analysis of the deposited data

Results flagged for a closer look

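For 7 genes the Duoxa-/- pool was the higher one in cage 1 and the lower one in cage 2. The difference in cage 1 minus that in cage 2 was 1.04 for Cd3d, 1.46 for Cd3g, 1.72 for Cd8a, 1.43 for Itgae, 2.29 for Gzma, 2.82 for Gzmb and 0.83 for Cd160 on the log2 scale. Each cage has 1 pool per genotype, so the difference between cages was not tested.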

How the results depend on the processing

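The count of probe sets called between genotypes was 0 in the unblocked fit and 0 with cage as a replicate block, where the median of the 10 genes was -0.20 as well and no call of these genes changed. The count was 0 to 1 when single pools or cages were left out, the 1 being Duoxa2 without the wild-type pool of cage 3 (limma adjusted p = 0.0158). Under all 18 alternatives, 0 of the 10 genes passed (limma, smallest adjusted p 0.446). Their median ranged from -0.56 (without cage 1) to 0.16 (without cage 2), including leaving out single pools. Cd2, Cd3e, Cd7 and Cd160 kept their sign under every alternative run. Leaving out pools or cages turned the sign of the 6 others, none of them called. Without single pools the difference ranged from -0.28 to 0.13 for Cd3d, -0.38 to 0.098 for Cd3g, -0.39 to 0.082 for Itgae, -0.69 to 0.084 for Gzma and -0.83 to 0.15 for Gzmb. Without cage 2 it was 0.17 for Cd3d, 0.19 for Cd3g, 0.035 for Cd8a, 0.15 for Itgae, 0.16 for Gzma and 0.21 for Gzmb. Without cage 3 it was 0.086 for Cd3d and 0.00072 for Cd3g. Scaling, filters, weights and the choice of probe set turned none. Between cages the count of called probe sets was 1, and it was 2 with 1 probe set per gene, 0 with the mean of a gene's probe sets, 3 with columns centred on their medians, 3 with array weights, 5 with an intensity trend and 1 to 16 without single pools. The test between cages was not run with the block or without whole cages. The cause was not tested. Without detection calls, dim probe sets were judged by level alone.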
